A study of Homo sapiens with 4 samples.

Results

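TGFBR3 and 9 other core genes of the TGF-beta pathway were followed in SK-BR-3 cells after knockdown of mutant p53, of Pontin, or of both. TGFBR3 encodes betaglycan, a co-receptor of TGF-beta, and it was chosen because its signal moved in opposite directions with the 2 knockdowns. The other genes were the ligands TGFB1 and TGFB2, the receptors TGFBR1 and TGFBR2, the signal transducers SMAD2, SMAD3 and SMAD4, the inhibitory SMAD7 and the repressor SKIL. All probe sets annotated to exactly 1 of these symbols were taken, 35 of the 41097 probe sets with a single symbol, for 10 of 19775 genes. Their values on the same arrays chose TGFBR3, so they are given as a description and carry no test.

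SK-BR-3 is an established HER2-amplified human breast cancer line, and the labels describe its p53 as mutant. There were 4 groups with 1 Affymetrix array each: p53 shRNA with the arm titled sicon, Pontin siRNA with control shRNA, p53 shRNA with Pontin siRNA, and control shRNA with sicon. All 4 cultures went through puromycin selection for an shRNA or empty vector before the siRNA step, and RNA was taken 24 h after it. The labels give neither the siRNA sequence nor the number of clones, and they do not spell out sicon. Pontin, encoded by RUVBL1, is an ATPase of chromatin remodelling complexes. The groups form a cross of the 2 knockdowns, so each could be read with and without the other.

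TGF-beta is secreted in a latent form bound to matrix proteins. Once freed, it binds the receptor kinase TGFBR2, which recruits and phosphorylates TGFBR1. TGFBR1 then phosphorylates SMAD2 and SMAD3, which join SMAD4 and enter the nucleus. Betaglycan has no kinase activity. It holds ligand at the cell surface and is best known for presenting TGFB2, which binds TGFBR2 poorly without it. The pathway restrains proliferation of normal mammary epithelium and is linked to invasion in advanced breast cancer, and loss of TGFBR3 has been reported during breast cancer progression.

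TGFBR3 and TGFB2 were the only members whose brightest probe set passed the size threshold used here, and both lie on chromosome 1. TGFBR3 spans chr1:91680343-91906002 on GRCh38.p14, and TGFB2 spans chr1:218345336-218444619. Their promoter windows are shown because they belong to these 2 genes. Each is the 250 bases before an annotated start in RefSeq (GRCh38.p14), read 5′ to 3′ on the gene's own strand. The TGFBR3 window is chr1:91886152-91886401 on the minus strand, and the annotated gene extends beyond it on its 5′ side. The TGFB2 window is chr1:218345086-218345335 on the plus strand. Capitals mark matches on either strand to CAGAC (bound by SMAD3 and SMAD4), GGAATG (bound by TEAD factors), TGACG (the core of the cAMP response element) and CACGTG (an E box).
TGFBR3: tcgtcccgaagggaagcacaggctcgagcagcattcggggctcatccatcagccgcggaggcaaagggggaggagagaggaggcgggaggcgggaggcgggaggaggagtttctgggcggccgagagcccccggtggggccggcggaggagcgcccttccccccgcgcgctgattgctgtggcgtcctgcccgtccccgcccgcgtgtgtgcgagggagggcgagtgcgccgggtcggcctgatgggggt
TGFB2: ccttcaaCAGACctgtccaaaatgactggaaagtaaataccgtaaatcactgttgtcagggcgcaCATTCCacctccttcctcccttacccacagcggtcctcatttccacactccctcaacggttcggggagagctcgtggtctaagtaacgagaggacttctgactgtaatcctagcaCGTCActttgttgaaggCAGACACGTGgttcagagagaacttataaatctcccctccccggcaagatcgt

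The TGFBR3 window held none of these 4 motifs and had a GC content of 73.6%, while the TGFB2 window had a GC content of 50.4% and held all 4. The TGFB2 window had 2 CAGAC matches, and the second overlaps the E box by 1 base. Over all 35116 windows of this length in the table, 38% held CAGAC, 11.9% GGAATG, 21.2% TGACG and 6.34% CACGTG. The 10-base p53 binding motif unit was in 5.57% of windows and in neither of these. All 10 genes had at least 1 window. A match to these letters is not evidence of a bound site, and no match says only that these letters were not in the window.

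The values were linear MAS5 signals, and on each array their mean was 150.0 once the top and bottom 2% of probe sets were set aside. Each gene was represented by its brightest probe set. The filter was a geometric mean signal over the 4 arrays of 15.3, the median over all probe sets. It kept 12066 genes, and 7744 of them at or above 110.3, the 75th percentile, are called bright. A gene was called where both matched pairs of a knockdown were at least 1.5-fold apart in the same direction, which is 0.585 in log2. For p53 shRNA the pairs are p53 shRNA over control shRNA, and both knockdowns over Pontin siRNA. For Pontin siRNA they are Pontin siRNA over control shRNA, and both knockdowns over p53 shRNA. The p53 and Pontin comparisons share all 4 arrays, so their values are set side by side and not counted as separate evidence. With 1 array per group there is no replicate, the calls carry no p-value, and the number of arrays limits the precision.

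RUVBL1, the target of the Pontin siRNA, had signals of 398.2 with p53 shRNA, 127.4 with Pontin siRNA, 65.8 with both and 477.7 with control shRNA, and was thus lowest on the 2 arrays labelled with Pontin siRNA. The array with both knockdowns stood apart in the series, with 18 hybridization control probe sets at 1.42 times those of the control array on average and a median signal of 19.6, against 15.9 to 16.5 on the others. Every second pair rests on it and every first pair does not, so both are given throughout. As labelled, the cells had the HER2 amplicon and luminal epithelial markers: 11 of 12 were kept, ERBB2 at signals of 4823 to 5581. The exception was CDH1, at 1.8 to 13.0, a gene known to be deleted in this line. Of the fibroblast markers 1 of 9 was kept, of the immune markers 1 of 4, of the endothelial markers 2 of 5 and of the basal epithelial markers 2 of 3 measured.

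TGFBR3 was lower with p53 shRNA and higher with Pontin siRNA on its brightest probe set. This probe set, 226625_at, had a signal of 74.0 with p53 shRNA, 198.2 with Pontin siRNA, 130.6 with both and 129.8 with control shRNA. The single knockdowns lay on opposite sides of the control, and the double knockdown lay within 1 unit of it. With p53 shRNA the log2 ratios were -0.81 and -0.60, 1.75-fold and 1.52-fold lower. With Pontin siRNA they were 0.61 and 0.82, 1.53-fold and 1.76-fold higher. The smallest of these 4 sizes, 0.60, was just past the threshold. Among bright genes with the same signs, PSAT1 was the only other gene inside it, with a smallest size of 0.62, and CSGALNACT1 was the nearest outside, with 0.50.

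The other TGFBR3 probe set shared the direction with Pontin siRNA and less of it with p53 shRNA. This probe set, 204731_at, had signals of 56.9 with p53 shRNA, 90.8 with Pontin siRNA, 96.2 with both and 72.9 with control shRNA. The array with p53 shRNA alone was again the lowest, but the double knockdown was the highest in place of lying at the control level. The log2 ratios were -0.36 and 0.08 for p53 shRNA and 0.32 and 0.76 for Pontin siRNA. Neither knockdown passed 1.5-fold in both pairs on it. Averaged over both probe sets, the ratios were -0.58 and -0.26 for the p53 knockdown. For the Pontin knockdown they were 0.46 and 0.79, so the calls rest on 226625_at. Calls were often not repeated on a second probe set. Of 70 genes called with p53 shRNA that had a second probe set at or above the median, 26 were called in the same direction on it, and with Pontin siRNA 21 of 97. These counts take calls alone, so a second probe set of the same sign but short of the threshold is not among them.

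Set against each other, the single knockdowns were further apart than either was from the control. This follows from the opposite directions on which TGFBR3 was chosen, so the rank given next is a description and carries no test. On 226625_at TGFBR3 was 2.68-fold lower with p53 shRNA alone than with Pontin siRNA alone, and 6 of 7744 bright genes, TGFBR3 among them, were at least that much lower. On 204731_at that log2 ratio was -0.67. The signal with both knockdowns departed from the sum of the single log2 effects by 0.21 on 226625_at and 0.44 on 204731_at. After addition of a pseudocount of 16 the smaller ratio fell inside the threshold for both knockdowns, at -0.55 and 0.55. After centring each array on its median the Pontin siRNA pairs were 0.57 and 0.53. In that setting the median of all genes kept was -0.16 with Pontin siRNA and -0.14 with p53 shRNA.

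**Figure D1:**
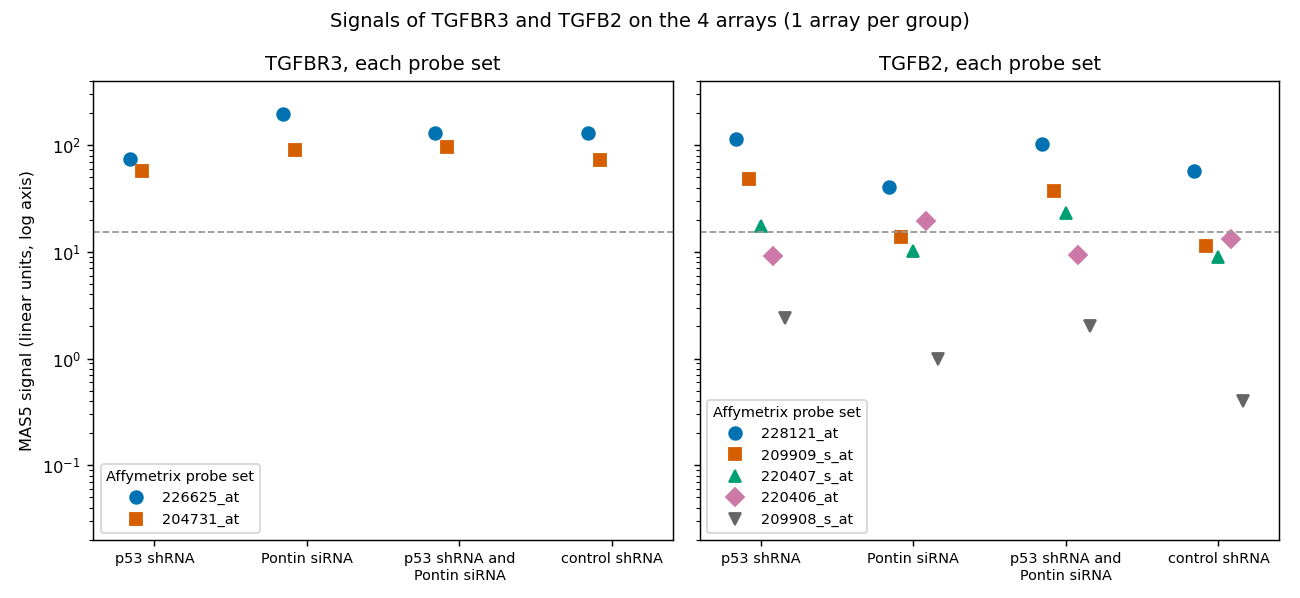
MAS5 signals (log axis) of every TGFBR3 and TGFB2 probe set on the 4 arrays, 1 point per array, with a dashed line at the filter of 15.3. TGFBR3 is lowest with p53 shRNA alone on both probe sets, and the 2 brightest TGFB2 probe sets are higher on both arrays with p53 shRNA than on both without it.

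Among the ligands, TGFB2 was higher with p53 shRNA in both pairs. Its brightest probe set, 228121_at, had a signal of 114.1 with p53 shRNA and 57.7 with control shRNA, and 101.9 with both knockdowns and 41.0 with Pontin siRNA alone. Both arrays with p53 shRNA were higher than both without it, by 1.98-fold and 2.49-fold. With Pontin siRNA its log2 ratios were -0.49 and -0.16, and no probe set of TGFB2 was called. In these bulk cultures, fewer cells making a transcript and less of it per cell cannot be told apart.

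The remaining TGFB2 probe sets differed in brightness and partly in direction. On 209909_s_at the signals were 48.1 and 37.0 with p53 shRNA, against 11.3 and 13.8 in the matched arrays, log2 ratios of 2.09 and 1.42. The dimmer 220407_s_at, below the filter, was at 0.95 and 1.17. The dimmest, 209908_s_at, had signals of 0.4 to 2.4 and ratios of 2.58 and 1.0. The exception was 220406_at, also below the filter, with signals of 9.2 to 19.4 and ratios of -0.53 and -1.05. In all, 4 of 5 TGFB2 probe sets were past 1.5-fold upward in both pairs, 2 of them at or above the filter. With the mean over its probe sets TGFB2 fell below the filter and was not evaluated. The 5 endothelial markers also had a higher summed signal with p53 shRNA, 155.8 and 164.4 against 107.2 and 104.0 in the matched arrays. None of them exceeded a signal of 105.8, and 2 passed the filter. The sums of the luminal, basal epithelial and immune markers were also higher in both pairs. Those of the basal epithelial markers were 62.0 and 93.4 against 61.4 and 56.2. The fibroblast sums were mixed, at 212.6 and 244.5 against 227.2 and 229.7. The part of the endothelial markers in the TGFB2 result was not tested.

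TGFB1 did not pass the filter. Its brightest probe set, 203084_at, lay just outside at signals of 14.8 with p53 shRNA, 14.9 with Pontin siRNA, 15.7 with both and 15.1 with control shRNA, and the 4 arrays hardly differed. Its other probe set, 203085_s_at, had signals of 0.6 and 1.2 with p53 shRNA against 8.8 and 9.7 in the matched arrays. These values lie near the bottom of the scale, and no direction is given for TGFB1.

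The brightest probe sets of the signalling receptors were within 1.5-fold in all 4 pairs. TGFBR1 had signals on 224793_s_at of 5762 with p53 shRNA, 4276 with Pontin siRNA, 4774 with both and 4908 with control shRNA. Its log2 ratios were 0.23 and 0.16 for p53 shRNA and -0.20 and -0.27 for Pontin siRNA. As deposited these were opposite in sign to TGFBR3 in all 4 pairs but smaller. After median centring the p53 shRNA pairs were 0.22 and -0.10, the second of the same sign as TGFBR3. A second probe set, 206943_at, gave 0.17 and -0.18 for the p53 knockdown, and 0.13 and -0.22 for the Pontin knockdown. The third, 236561_at, was past 1.5-fold in all 4 pairs but in opposite directions, at -0.83 and 0.94 for the p53 knockdown and at -0.66 and 1.11 for the Pontin knockdown. TGFBR2 had signals on 208944_at of 354.9 with p53 shRNA, 330.1 with Pontin siRNA, 323.1 with both and 316.1 with control shRNA. Its log2 ratios were 0.17 and -0.03 for p53 shRNA. For Pontin siRNA they were 0.06 and -0.14, so neither knockdown had the same sign in both pairs.

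The brightest probe sets of the receptor-activated SMADs were also within 1.5-fold. SMAD2, on 203075_at, had signals of 678.8 with p53 shRNA, 729.8 with Pontin siRNA, 599.8 with both and 774.3 with control shRNA, so each knockdown array was below the control. Its log2 ratios were -0.19 and -0.28 for p53 shRNA and -0.09 and -0.18 for Pontin siRNA. The other 3 bright SMAD2 probe sets had means of the 2 pairs from -0.07 to 0.01 with p53 shRNA and from 0.06 to 0.27 with Pontin siRNA, the Pontin siRNA means being of opposite sign to the brightest one. The dimmest SMAD2 probe set, 239271_at, with signals of 19.1 to 32.6, had pairs of opposite sign for both knockdowns, at 0.32 and -0.72 with p53 shRNA and, with Pontin siRNA, at 0.77 and -0.27. SMAD3, on 218284_at, had signals of 206.4 with p53 shRNA, 169.6 with Pontin siRNA, 190.0 with both and 164.0 with control shRNA. Its log2 ratios were 0.33 and 0.16 with p53 shRNA, but on 205398_s_at, the other SMAD3 probe set above the filter, they were -0.48 and -0.22. The direction of SMAD3 with p53 shRNA therefore depended on the probe set. With Pontin siRNA 218284_at gave 0.05 and -0.12, and 205398_s_at 0.31 and 0.57.

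SMAD4, the shared partner of SMAD2 and SMAD3, had 5 probe sets, and as deposited all 5 had ratios above 0 in both p53 shRNA pairs. The brightest, 202527_s_at, had signals of 110.1 with p53 shRNA and 81.3 with control shRNA, and 96.4 with both knockdowns and 85.8 with Pontin siRNA alone. The log2 ratios were 0.44 and 0.17 as deposited, and 0.43 and -0.09 after median centring. On 235725_at, the next brightest, the ratios as deposited were 0.65 and 0.53, the second just inside the threshold. The 3 others lay below the filter, and 1 of them, 1565703_at with signals of 5.2 to 11.9, was past it at 1.19 and 0.76. With Pontin siRNA no SMAD4 probe set had both pairs above 0, and the brightest was at 0.08 and -0.19.

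SMAD7 and SKIL are feedback inhibitors whose transcription is raised by TGF-beta signalling itself. SMAD7, measured by 1 probe set, had signals of 54.4 with p53 shRNA, 61.8 with Pontin siRNA, 69.3 with both and 55.3 with control shRNA. Its log2 ratios were -0.02 and 0.17 for p53 shRNA and 0.16 and 0.35 for Pontin siRNA. SKIL, on 225227_at, had signals of 1692 with p53 shRNA, 1251 with Pontin siRNA, 1327 with both and 1540 with control shRNA. Both arrays with Pontin siRNA were below both without it, at log2 ratios of -0.30 and -0.35, which is within 1.5-fold. With p53 shRNA it was at 0.14 and 0.09. SKIL probe set 215889_at, near the filter at signals of 10.7 to 34.8, was called higher with p53 shRNA at 0.59 and 1.5. The next brightest SKIL probe sets, 217591_at and 206675_s_at, had pairs of opposite sign for both knockdowns. The 2 feedback genes did not share a direction with Pontin siRNA on their brightest probe sets.

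**Figure D2:**
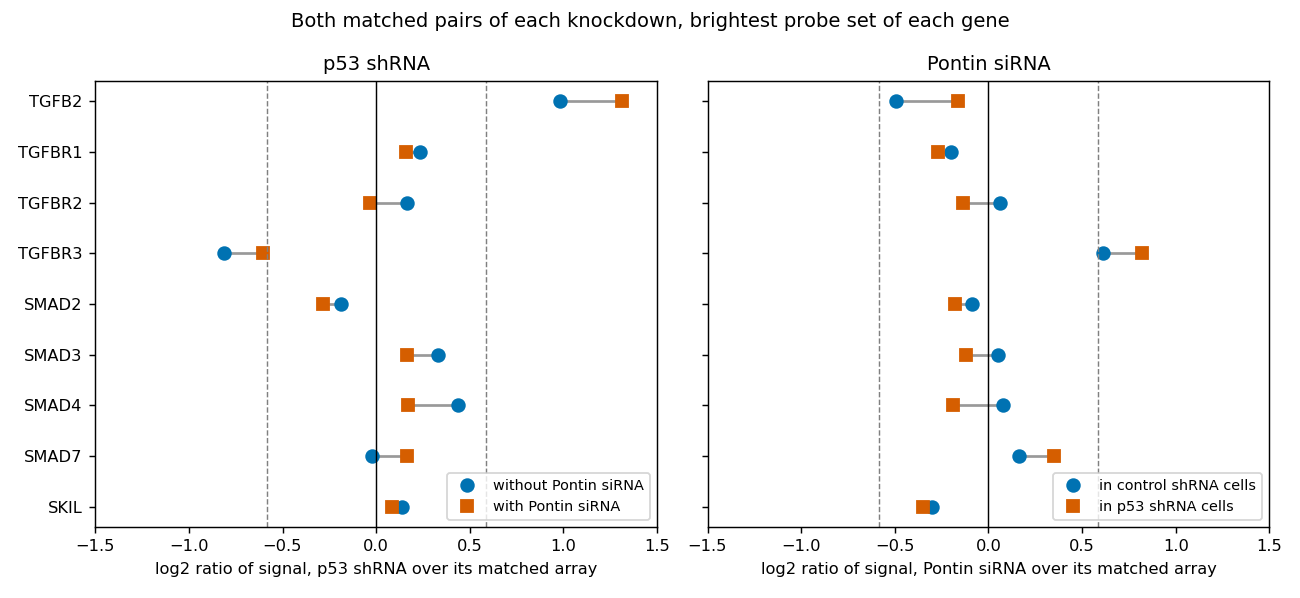
log2 ratios of the brightest probe set of the 9 genes kept, for p53 shRNA (left) and Pontin siRNA (right), with 1 symbol per matched pair and dashed lines at 1.5-fold. TGFB2 and TGFBR3 lie past the line in both p53 shRNA pairs, TGFBR3 alone in both Pontin siRNA pairs, and the 7 other genes lie between the lines in all 4 pairs.

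Of the 10 genes, 9 passed the filter. With p53 shRNA 1 was called higher (TGFB2) and 1 lower (TGFBR3), where 1.38% of the 12066 genes kept were called higher and 0.862% lower. With Pontin siRNA 1 was called higher (TGFBR3) and 0 lower, against 1.16% and 1.24% of genes kept. Since TGFBR3 was chosen on these ratios, nothing is read from its part of the counts. Among bright genes the shares were 0.22% higher and 0.413% lower with p53 shRNA, and 0.181% higher and 1.1% lower with Pontin siRNA. Lower with p53 shRNA and higher with Pontin siRNA at once, as for TGFBR3, were 6 genes kept, 0.0497%. The median of the mean log2 ratios over the 9 genes was 0.11 with p53 shRNA and -0.06 with Pontin siRNA, against -0.002 and 0.010 over all genes kept. The split of calls over all genes depended on scaling. With p53 shRNA 167 genes were called higher and 104 lower as deposited, 126 and 135 after quantile normalization, 127 and 132 after loess, and 97 and 183 after median centring. With Pontin siRNA the counts were 140 and 150 as deposited, 75 and 188 after quantile normalization, 77 and 187 after loess, and 55 and 246 after median centring.

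By probe set, 23 of the 35 were at or above the filter. Of these, 8 were above 0 in both p53 shRNA pairs, 4 below 0 in both and 11 mixed. With Pontin siRNA 8 were above, 5 below and 10 mixed. With p53 shRNA 3 were called higher (2 of TGFB2 and 1 of SKIL) and 1 lower, where 1.29% and 0.869% of all single-symbol probe sets at this level were called. With Pontin siRNA 1 was called higher and 0 lower, against 1.47% and 1.24%. Past 1.5-fold with opposite signs in the 2 pairs were 1.12% of such probe sets for p53 shRNA and 0.983% for Pontin siRNA, and among the 23 this was TGFBR1 probe set 236561_at for both knockdowns.

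**Figure D3:**
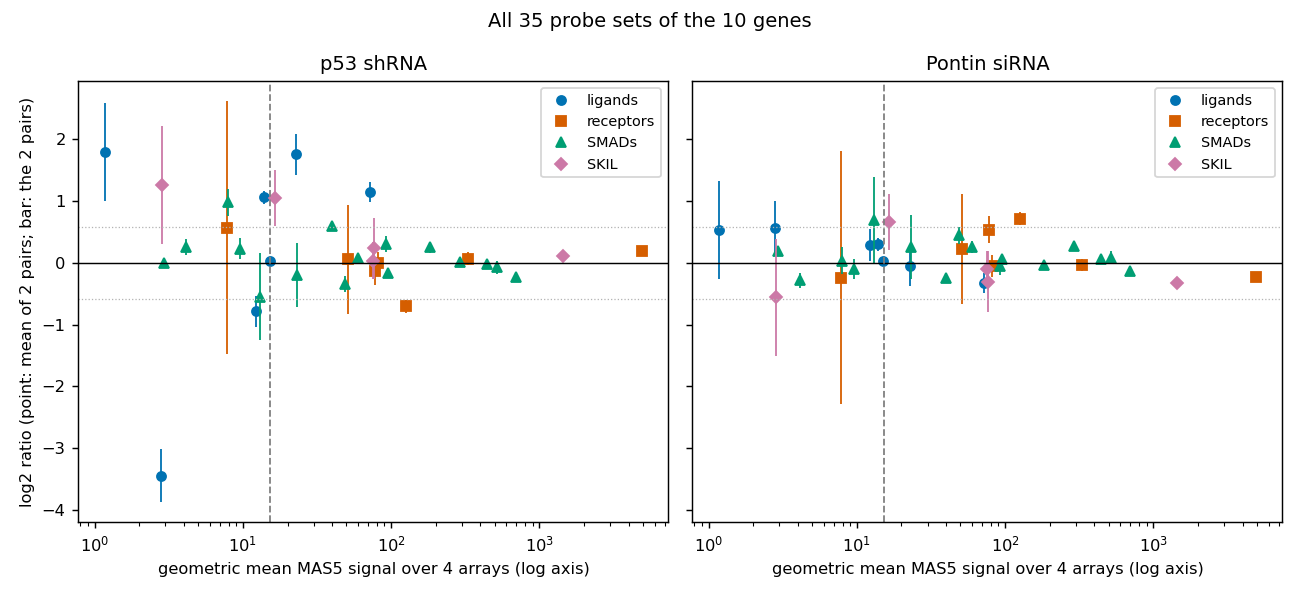
Mean log2 ratio of the 2 pairs (points) and the 2 pair values (ends of the bars) for all 35 probe sets, against their geometric mean signal on a log axis, with a dashed line at the filter of 15.3 and dotted lines at 1.5-fold. Probe sets above a signal of 100 have short bars, and the longest bar belongs to TGFBR2 probe set 207334_s_at at a mean signal of 7.82.

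The genes most like TGFBR3 were sought among the other 7743 bright genes by the distance between log2 signals on the 4 arrays, each gene centred on its own mean. The nearest was PSAT1, an enzyme of serine synthesis, at a distance of 0.09. It was followed by HIPK2, a nuclear kinase (0.22), ZMAT3, a zinc finger RNA-binding protein (0.25), CSGALNACT1, an enzyme of chondroitin sulfate synthesis (0.25), CGA, the alpha subunit of glycoprotein hormones (0.25), and SLC46A3, a lysosomal transporter (0.26). TGFBR3 itself lay 1.01 from a flat profile. PSAT1 had signals of 375.0 with p53 shRNA, 1087 with Pontin siRNA, 699.0 with both and 709.3 with control shRNA. Unlike TGFBR3, PSAT1 had a second probe set, 220892_s_at, with the same 4 directions, at -0.81 and -0.65 for p53 shRNA and 0.71 and 0.87 for Pontin siRNA. All 5 ZMAT3 probe sets likewise had the TGFBR3 signs in all 4 pairs. Of the 6 HIPK2 probe sets above the filter 3 did, while 225097_at and 213763_at were above 0 in 1 p53 shRNA pair and 225115_at was below 0 in both Pontin siRNA pairs, at -0.10 and -0.34. Likeness over 4 arrays is a description of these arrays.

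Nearest to the mirror image of TGFBR3 were HSD17B11, a steroid dehydrogenase (0.23), WNT9A, a Wnt ligand (0.26), IVL, which encodes involucrin of the cornified envelope (0.26), and F3, which encodes tissue factor (0.26). F3 had signals of 537.2 with p53 shRNA, 228.8 with Pontin siRNA, 313.1 with both and 385.9 with control shRNA, log2 ratios of 0.48 and 0.45 for p53 shRNA and -0.75 and -0.78 for Pontin siRNA. None of the other bright members was among these genes. Of the 5, SMAD2 ranked nearest to TGFBR3, at 2982 of 7743, and SKIL farthest, at 7096. By distance to the mirror image TGFBR1 ranked 308 and SKIL 349, SMAD3 895, TGFBR2 2118 and SMAD2 5266.

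**Figure D4:**
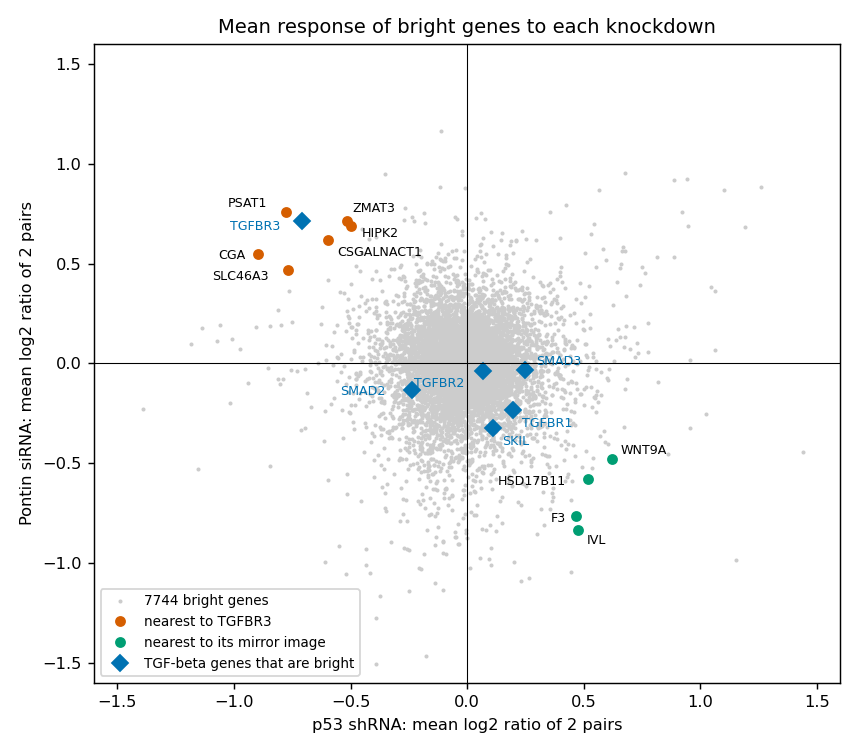
Mean log2 ratio with p53 shRNA against mean log2 ratio with Pontin siRNA for the 7744 bright genes (6 lie outside the axes). TGFBR3 lies at the upper left among its nearest genes, away from TGFBR1, TGFBR2, SMAD2, SMAD3 and SKIL, which lie within the dense centre.

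Wider lists of the pathway, 5 in all, held 109 genes, of which 75 were kept. With p53 shRNA 6 were called higher and 1 lower, and with Pontin siRNA 1 higher and 4 lower. Over all genes kept, 1.38% were called higher and 0.862% lower for the p53 knockdown. For the Pontin knockdown 1.16% were called higher and 1.24% lower. Nothing particular to the lists is read from these counts. Of the ligands and activators 14 of 21 measured were kept, with 3 called higher with p53 shRNA, where 1.38% of all genes kept were: TGFB2, LTBP2, a latent TGF-beta binding protein of the matrix, at 1.17 and 1.64, and GDF15, a divergent family member induced by stress, at 1.13 and 1.21. Both LTBP2 (10.2 to 39.3) and GDF15 (21.2 to 69.4) had low signals, and another GDF15 probe set below the filter, 229868_s_at, gave -2.13 and -2.04. The latency proteins LTBP3 and LTBP4 were at -0.32 and -0.36 and at -0.30 and -0.26 with p53 shRNA on their brightest probe sets. Their other probe sets above the filter differed. LTBP4 probe set 210628_x_at was at 0.95 and 0.02. LTBP3 probe sets 227308_x_at and 237144_at were mixed, at -0.25 and 0.27 and at -0.36 and 0.41. With Pontin siRNA 2 were called lower: BMP4, a bone morphogenetic protein, at -1.09 and -0.79 on signals of 11.2 to 23.9, and THBS1. The list medians were 0.07 and -0.04.

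THBS1, which encodes thrombospondin-1, a matrix protein that activates latent TGF-beta, had signals of 525.3 with Pontin siRNA and 867.4 with control shRNA, and 733.9 with both knockdowns and 1150 with p53 shRNA alone. Its log2 ratios were -0.72 and -0.65 with Pontin siRNA and 0.41 and 0.48 with p53 shRNA. All 4 THBS1 probe sets above the filter were below 0 in both Pontin siRNA pairs. Besides the brightest, 201110_s_at, 235086_at was past the threshold at -0.77 and -0.62, and the other two were within it, at -0.26 and -0.36 on 201109_s_at and at -0.03 and -0.28 on 201108_s_at.

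Of the receptors and co-receptors 13 of 15 measured were kept, and TGFBR3 was the only one called with either knockdown. TGFBR3 was chosen on these ratios, so nothing is read from its call. The p53 knockdown called 1.38% of all genes kept higher and 0.862% lower, the Pontin knockdown 1.16% and 1.24%. The lack of calls among the other receptors thus does not set this list apart. The list medians were 0.07 with p53 shRNA and -0.04 with Pontin siRNA. ENG, which encodes endoglin, the co-receptor most closely related to betaglycan, had signals on 201809_s_at of 36.7 with p53 shRNA, 88.0 with Pontin siRNA, 74.7 with both and 70.2 with control shRNA. Its lowest and highest arrays were those of TGFBR3, and the double knockdown again lay near the control. The log2 ratios were -0.94 and -0.24 for p53 shRNA. For Pontin siRNA they were 0.33 and 1.03, so that 1 pair of each knockdown was past the threshold and 1 was not. Its other probe set, 201808_s_at, with signals of 6.6 to 12.8, was below 0 in both p53 shRNA pairs (-0.33 and -0.77) and above 0 in both Pontin siRNA pairs (0.62 and 0.18). NRP1, a neuropilin that also binds TGF-beta, was at 0.52 and 0.54 with p53 shRNA, and the activin receptor ACVR2B at 0.42 and 0.17. The other ACVR2B probe sets above the filter differed, 220028_at at -0.04 and 0.34 and 1559548_at at -0.41 and -0.23.

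Of the 8 SMAD genes, all kept, and of the 20 SMAD pathway regulators kept out of 27 measured, 0 were called with either knockdown. Calls were rare among all genes kept too. The p53 knockdown had 1.38% higher and 0.862% lower, the Pontin knockdown 1.16% and 1.24%. At such shares, 0 calls in lists this short do not set them apart from other genes. The SMAD medians were 0.18 with p53 shRNA and -0.01 with Pontin siRNA, and those of the regulators 0.03 and 0.05. SMAD6, an inhibitory SMAD, was at 0.24 and 0.26 with p53 shRNA. NEDD4L, a ubiquitin ligase that acts on activated SMAD2 and SMAD3, was at 0.49 and 0.53 with p53 shRNA. On 212448_at, another NEDD4L probe set, it was at 0.09 and 0.03. Of the 20 regulators, 7 were above 0 in both p53 shRNA pairs and 6 below 0 in both. Among those below were FSTL3, at -0.26 and -0.38 on signals of 18.4 to 23.9, and DAB2, at -0.14 and -0.26. DAB2 probe set 201280_s_at was mixed, at -0.22 and 0.19. With Pontin siRNA ZFYVE9, the SMAD anchor SARA, was at 0.34 and 0.28, and the ubiquitin ligase gene WWP1 at -0.24 and -0.22. ZFYVE9 probe set 208446_s_at, also above the filter, was mixed with Pontin siRNA, at -0.68 and 0.23.

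Of the TGF-beta response genes 25 of 35 measured were kept. With p53 shRNA 4 were called higher and 0 lower, against 1.38% and 0.862% of all genes kept, and the median was 0.15. They were CCN2, a matricellular protein, LTBP2, ACTA2, which encodes smooth muscle actin, at 1.03 and 1.0 on signals of 14.9 to 40.4, and ANGPTL4, an angiopoietin-like secreted protein, at 0.64 and 0.79. A second ANGPTL4 probe set gave 0.36 and 0.55. Of the 25 kept, 13 were above 0 in both p53 shRNA pairs and 3 below 0 in both. Over all genes kept these counts were 3697 and 3885. Among the 3 was FN1, which encodes fibronectin, at -0.14 and -0.30 on signals of 1176 to 1451. All FN1 probe sets above the filter were below 0 in both p53 shRNA pairs. With Pontin siRNA 3 were called lower and 0 higher, against 1.24% and 1.16% of all genes kept, and the median was 0.02. They were CCN2, THBS1 and ID1, an inhibitor of differentiation that also responds to BMP, with signals of 591.5 with Pontin siRNA and 995.8 with control shRNA, and 694.5 with both knockdowns and 1042 with p53 shRNA alone. CCN2 had signals of 346.4 with p53 shRNA, 78.7 with Pontin siRNA, 164.9 with both and 146.5 with control shRNA, the reverse order of TGFBR3 on the single knockdowns. The mesenchymal regulators SNAI2, ZEB1, ZEB2 and TWIST1 and the filament gene VIM were below the filter. SNAI1, a regulator of the same kind, passed it at signals of 25.4 with p53 shRNA, 21.7 with Pontin siRNA, 15.5 with both and 9.0 with control shRNA, with pairs of opposite sign for both knockdowns. Several response genes answer to other pathways too, and the lists share genes.

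**Figure D5:**
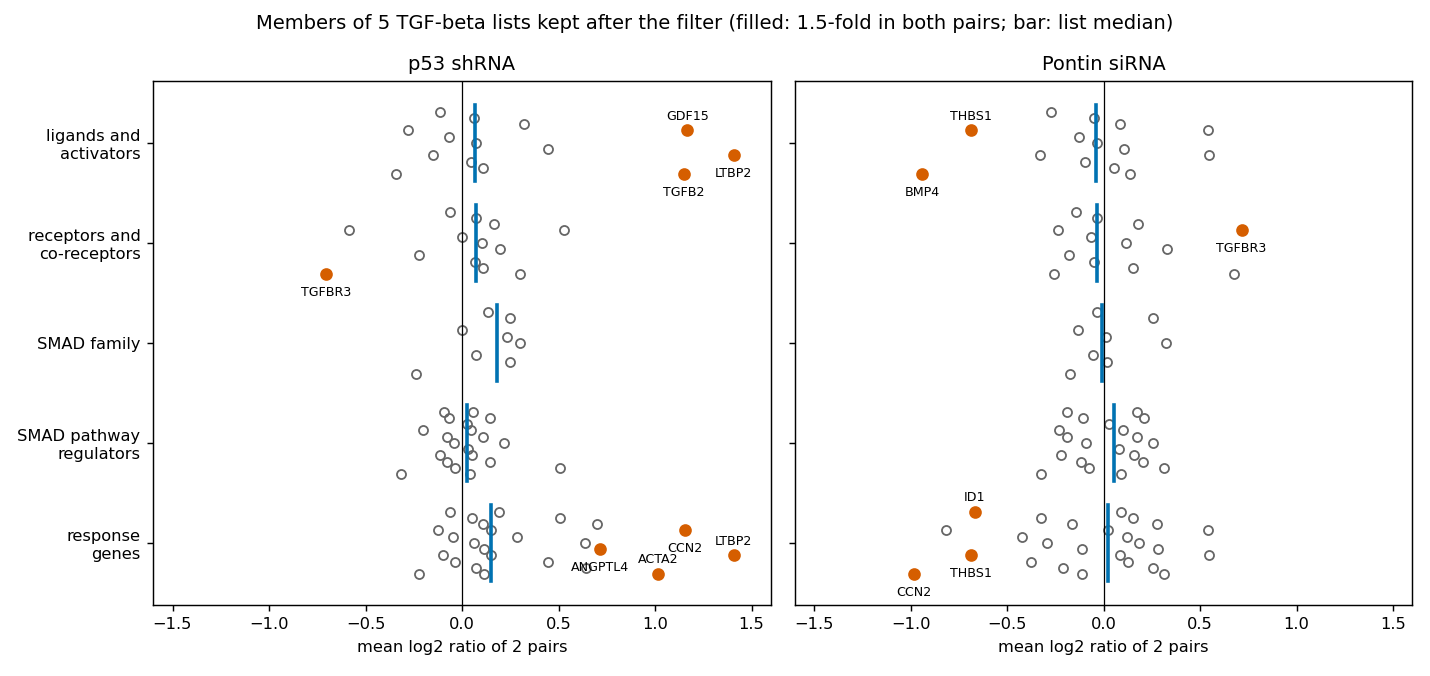
Mean log2 ratio of the 2 pairs for the kept members of the 5 lists, with p53 shRNA on the left and Pontin siRNA on the right. Filled points, named, are past 1.5-fold in both pairs, and bars mark list medians, which lie between 0.03 and 0.18 with p53 shRNA and between -0.04 and 0.05 with Pontin siRNA.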

How the data were processed

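The deposited values are MAS5 signals for 54675 probe sets on 4 arrays, per the submitters' processing notes, which give no version. The authors' scaling to a common trimmed mean was checked in the signal table. Gene symbols came from the array's platform annotation and were brought up to date by Entrez identifier (41043 of 41097 matched). Probe sets with several symbols (1801) or none (11777), among the latter 62 control probe sets, were left out. Signals were taken to log2 as deposited, with the 14 signals of 0 set to 0.1, the lowest above 0. Python 3.11.15 was used, and limma 3.58.1 in R 4.3.3 for alternatives. The calling script was tested on simulated data. The effects planted there were larger, and in brighter genes, than those of TGFBR3, so calls near the threshold were not covered. The genes and lists were chosen with earlier results of these data known. Genes named were the 10 members, the 6 bright genes nearest to TGFBR3, the 4 nearest to its mirror image, and list members called. Of the 2 list genes with the largest smaller ratio per list and direction, some but not all are named. THBS1, TGFB2 and HIPK2 probe sets, further probe sets of list genes, SNAI1, and VIM and other list members below the filter were picked after their values were seen. Promoter windows come from RefSeq. The shRNA's own target transcript was not analysed here. Other scalings, filters, thresholds and probe set choices were tried as alternatives.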

Additional observations from a re-analysis of the deposited data

Results flagged for a closer look

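TGFBR1 probe set 236561_at went opposite ways in the 2 pairs of each knockdown. Its signals were 35.4 with p53 shRNA, 39.8 with Pontin siRNA, 76.4 with both and 62.9 with control shRNA, and the log2 ratios were -0.83 and 0.94 for p53 shRNA and -0.66 and 1.11 for Pontin siRNA. TGFBR2 probe set 207334_s_at, below the filter at signals of 2.9 to 17.8, did the same, with -1.48 and 2.62 for p53 shRNA and -2.29 and 1.80 for Pontin siRNA. These differences between the pairs were not tested, since each pair is 1 array over 1 array. The brighter probe sets of both genes were within 1.5-fold in all 4 pairs.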

How the results depend on the processing

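The TGFBR3 mean log2 ratio kept its sign in all settings run. Only the scalings, the pseudocount, the mean over probe sets and the next brightest probe set could have changed it. The other settings repeat the reported mean or 1 of its pairs, so their sign was fixed. TGFBR3 was no longer called for p53 shRNA with a pseudocount of 16 (-0.62), the mean over probe sets (-0.42), the next brightest probe set (-0.14), a 2-fold threshold or the additive limma fit (-0.71 in both). For Pontin siRNA it was no longer called with median centring (0.55), the pseudocount (0.63), the mean over probe sets (0.63), the next brightest probe set (0.54), the 2-fold threshold or the additive fit (0.72 in both). The cause was not tested. The members called with p53 shRNA numbered 1 with the pseudocount and when limited to bright genes, and 0 under probe set averaging, 2-fold and the additive fit, against 2 as reported. With Pontin siRNA 0 were called under median centring, the pseudocount, the mean over probe sets, 2-fold and the additive fit, against 1. TGFB2 stayed called with p53 shRNA (0.93 to 1.13) under quantile, loess and median centring and the pseudocount. Genes called with p53 shRNA and with Pontin siRNA, 271 and 290 as reported, numbered 111 and 138 with the pseudocount, 1907 and 1921 with no filter, 49 and 99 among bright genes, 50 and 29 at 2-fold, and 1008 and 1179 at a log2 threshold of 0.32. The additive limma fit, with 1 residual degree of freedom per gene, called 0 and 0 after Benjamini-Hochberg adjustment, and 1390 and 1737 at an unadjusted p under 0.05. Leaving out each array in turn, added after seeing the data, leaves 1 of the pairs already given per knockdown. TGFBR3 was thus at -0.81 or -0.60 with p53 shRNA and at 0.61 or 0.82 with Pontin siRNA. A gene called in both pairs is past the threshold in either, so these runs could add members but not drop one. Members called stayed 2 and 1, and genes called ranged from 1062 to 1179 and from 982 to 1422. Of 120 values of the other members under other settings, 22 moved by more than the standard deviation of their 2 pairs. Among the 120, 7 changed sign, none of them a called one. Settings that change only the filter repeat the reported values, and TGFB2 has no value under the mean over probe sets. Array number and low signals limit what small ratios can show.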
